A study of Homo sapiens with 6 samples.

Results

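The 8 enzymes of heme synthesis listed here (ALAS1, ALAS2, ALAD, UROS, UROD, CPOX, PPOX and FECH) and the iron carrier of the inner mitochondrial membrane that feeds the last of them (SLC25A37, mitoferrin 1) were followed in K562 cells whose own MYB had been knocked down and replaced by a SUMO mutant of MYB. The 9 genes were picked by name for their place in the pathway, with earlier results of these data known, and they are 9 of the 58288 gene IDs measured. K562 is a human erythroleukemic cell line. All 6 libraries came from K562 cells stably expressing a 3xFLAG- and HA-tagged MYB, selected with 200 µg/ml G418 and transfected with the siRNA si2992, which targets the 3′ end of the endogenous MYB transcript; RNA was taken 24 h later. In 3 libraries the tagged protein was 2KR-MYB, in which the lysines that accept SUMO are changed to arginine (SUMO conjugation-deficient), and in the other 3 it was ANAA-MYB, in which the SUMO-interaction motif is mutated (SUMO binding-deficient). The study's methods name a single clone of each mutant for the RNA-seq, so the mutation and the clone cannot be told apart. They call the replicates biological but do not say how these were separated. The p-values therefore measure the spread between these libraries, all 3 of a group from the same clone. No control, knockdown or wild-type MYB library was used here, and every comparison below is 2KR-MYB against ANAA-MYB.

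Heme is built in 8 steps that begin and end in mitochondria. ALAS joins glycine to succinyl-CoA, with ALAS1 as the form found in most cells and ALAS2 as the erythroid form, and this first step is the one that is most tightly controlled. ALAD, UROS and UROD work in the cytosol on the pyrrole and the porphyrin ring, CPOX and PPOX oxidise the ring in mitochondria, and FECH inserts the iron that mitoferrin has brought across the inner membrane. Erythroid cells make most of the body's heme, for hemoglobin, and GATA1 and KLF1 are the best known transcription factors of the erythroid forms of these genes.

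The stretch upstream of the transcription start is shown for the housekeeping and the erythroid synthase, which catalyse the same step, and for ALAD, the enzyme that passed the test below. The sequences are the 150 bases before the annotated start, from RefSeq on GRCh38.p14, written 5′ to 3′ in the direction of transcription, with matches to a GATA or CACCC motif in capitals.
ALAS1, chr3:52197933-52198082, plus strand: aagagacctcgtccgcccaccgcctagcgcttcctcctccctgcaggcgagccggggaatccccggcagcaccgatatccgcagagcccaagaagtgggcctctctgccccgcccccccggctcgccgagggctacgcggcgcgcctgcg
ALAS2, chrX:55030978-55031127, minus strand: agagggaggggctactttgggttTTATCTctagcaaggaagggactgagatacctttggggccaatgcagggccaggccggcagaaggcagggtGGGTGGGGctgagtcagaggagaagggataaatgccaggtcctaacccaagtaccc
ALAD, first annotated start, chr9:113401285-113401434, minus strand: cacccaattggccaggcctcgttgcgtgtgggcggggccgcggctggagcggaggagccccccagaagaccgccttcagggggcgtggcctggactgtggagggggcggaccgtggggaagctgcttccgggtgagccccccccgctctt
The ALAS2 stretch holds a GATA match and a match to the CACCC motif, and the other two hold none of the motifs searched. The search ran on both strands over 250 bases before to 50 bases after the start. The GATA motif was searched as TGATAA and as AGATAA, and also as TGATAG and as AGATAG. The CACCC motif was searched as CCNCACCC. The MYB motif was searched as TAACTG and as TAACGG, and also as CAACTG and as CAACGG. The matches found do not overlap one another. RefSeq windows were found for 7 of the 9 genes (9 windows, since ALAD and PPOX have more than 1 start). A GATA match was found in 4 of the 9 windows (ALAS2, ALAD at its other start, CPOX, and PPOX at 1 of its starts), against 25.0% of the 35116 human windows of the same length. A CACCC match was found in 2 of the 9 (ALAS2 and PPOX, against 18.3% of all windows) and a MYB match in 1 (UROD, against 25.7%). All these matches lay before the start, while the shares of all windows count matches on either side of it. These matches are descriptions of letters in a window, not of binding.

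Values are FPKM, a measure scaled by gene length and by library, though how the libraries were scaled is not stated. The scaling by length lets levels of different genes be set side by side. UROD, which takes the carboxyl groups off the porphyrin ring, was by far the most abundant of the 9 genes, with a mean of 326 FPKM over the 6 libraries, higher than 98.2% of the tested genes. SLC25A37 followed at 60.1 FPKM, ALAS1 at 28.9 FPKM, FECH at 23.0 FPKM, CPOX at 13.3 FPKM, ALAD at 11.2 FPKM, ALAS2 at 10.3 FPKM, PPOX at 9.06 FPKM and UROS at 8.52 FPKM, a 38.2-fold span from first to last. UROD, SLC25A37 and ALAS1 did not overlap one another in any library, and FECH lay above CPOX in every library. The ranges of ALAS1 and FECH over the 6 libraries overlapped, as did those of each neighbouring pair from CPOX down to UROS. Within a library, though, ALAS1 was above FECH in 6 of 6 and CPOX above ALAD in 6 of 6, so only the order among ALAD, ALAS2, PPOX and UROS changed from library to library. UROD alone made up 73.5% to 78.2% of the summed FPKM of the 8 enzymes. All 9 erythroid marker genes checked had a mean of at least 1 FPKM.

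**Figure D1:**
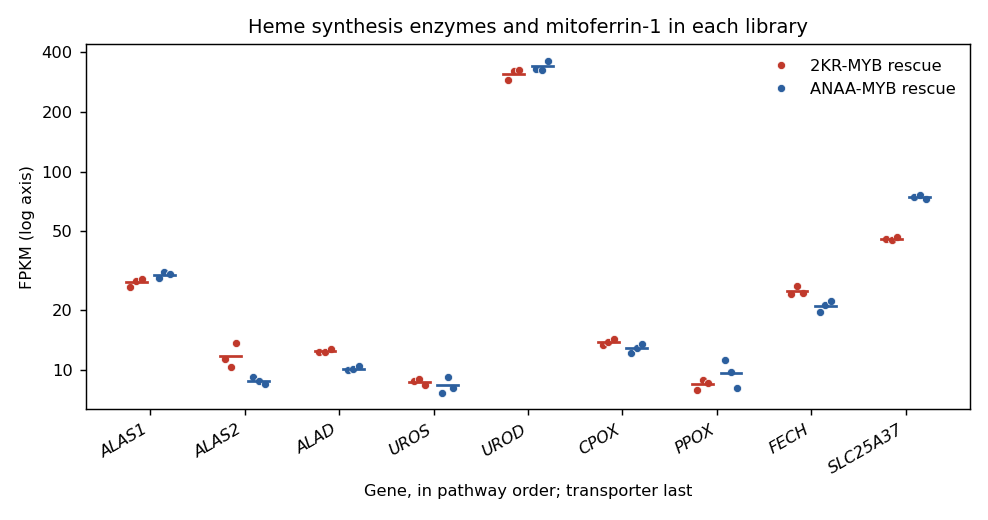
FPKM of each of the 9 genes in the 3 2KR-MYB and the 3 ANAA-MYB libraries (points; log axis), in pathway order with the carrier last, and the group means as bars. UROD stands above all others at 289 to 363 FPKM, and SLC25A37 is the gene whose 2 groups are furthest apart.

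Between the 2 rescues, mitoferrin 1 was the gene that differed most, and it was lower in the 2KR-MYB cells; of the enzymes, only ALAD passed the test, and it was higher in the 2KR-MYB cells. The difference of every gene was tested with limma on log2(FPKM + 1) over 12634 genes, and a gene was called where its Benjamini-Hochberg adjusted p over all of them was under 0.01. Of the 9 genes 2 were called, 1 higher and 1 lower in 2KR-MYB, against 13% of all tested genes (5.57% higher and 7.42% lower). The median log2 difference, 2KR-MYB minus ANAA-MYB, was 0.057 for the 9 genes and -0.015 for all tested genes. With the wider threshold of 0.05 the count was 4 of 9, against 26.9% of all genes. The libraries of the 2 rescues did not overlap for 5 of the 9 genes, against 44.9% of all genes. With 9 genes, each of these counts is to be read against the share of all genes, and none marks the pathway out.

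**Figure D2:**
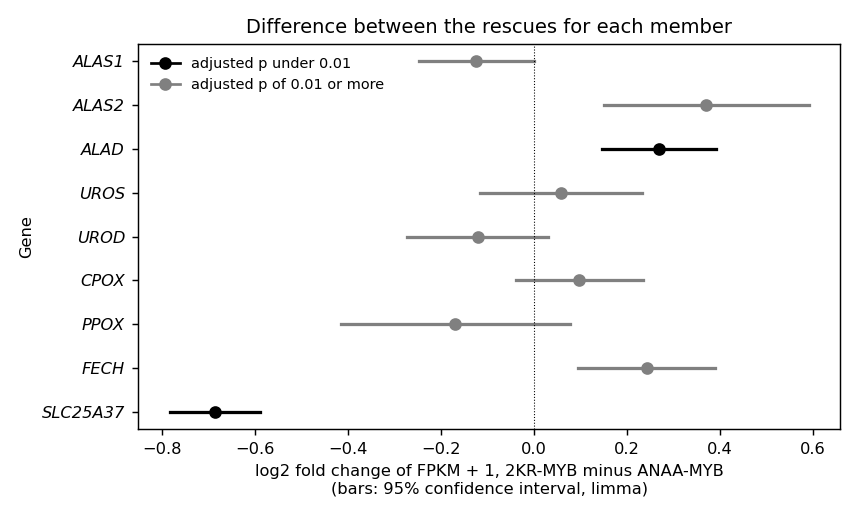
Log2 difference in FPKM + 1, 2KR-MYB minus ANAA-MYB, of the 9 genes with its 95% confidence interval. SLC25A37 lies at -0.69 and ALAD at 0.27, the pair that passed an adjusted p of 0.01; the intervals of UROS, UROD, CPOX and PPOX include 0.

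SLC25A37 carries iron into the mitochondrial matrix and is the erythroid of the 2 mitoferrins. In the 2KR-MYB libraries it measured 45.7, 45.1 and 46.9 FPKM, and in the ANAA-MYB libraries 74.2, 75.8 and 73.1 FPKM. Each group was tight, and every ANAA-MYB library lay well above every 2KR-MYB library. The means were 45.9 ± 0.919 and 74.4 ± 1.34 FPKM (SD, n = 3 each), 1.62-fold higher in ANAA-MYB. The log2 difference was -0.69 (SE 0.042, 95% interval -0.78 to -0.59; limma, adjusted p 4.7e-05). It was called under all 14 alternative settings, at log2 differences of -0.70 to -0.63.

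The gene lies at 23528956 to 23575463 on chromosome 8 (GRCh38.p14), and the genes on one side of it differed in the same direction. Of the 10 tested genes before it along the chromosome all 10 were at negative log2 differences and 8 passed the test, with a median of -0.69, the value of SLC25A37 itself. Of the 10 tested genes beyond it 6 were negative and 2 passed, both of them higher in 2KR-MYB (BNIP3L at 0.50 and CLU at 0.86), with a median of -0.014. The sides differ in distance: the 10 before it start within 0.92 Mb and the 10 beyond it 1.90 to 4.24 Mb away. TNFRSF10A-DT is counted under 2 gene IDs at the same position, among the 10 before it and in the stretch that follows. From TUSC3 to SLC25A37, a stretch of 35 tested genes over 8.11 Mb that was delimited on these same values, 34 genes were at negative differences and 27 passed, with a median of -0.66; SLC25A37 ranked 14th from the lowest. LPL, lipoprotein lipase, was the exception at 2.37, and it is among the 27 that passed (limma, adjusted p 2.0e-05). RNU6-892P, at -3.95, did not pass. The 20 genes flanking each of the other 8 members had medians of -0.098 to 0.095. Only RNA was measured, and the clone and the mutant cannot be told apart here.

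**Figure D3:**
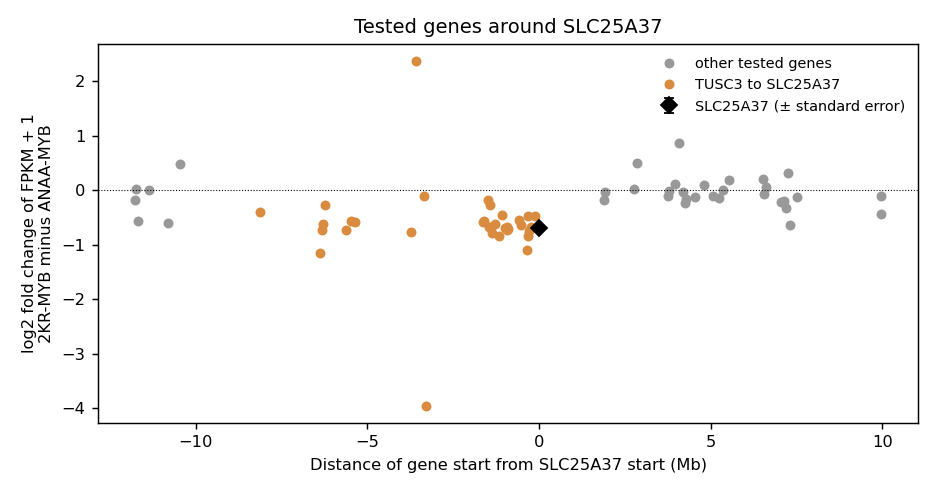
Log2 difference, 2KR-MYB minus ANAA-MYB, of tested genes against their distance in Mb from the start of SLC25A37. Genes before it, back to TUSC3, lie mostly near the stretch's median of -0.66, while the 10 genes beyond it have a median of -0.014.

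The other mitoferrin, SLC25A28, is the broadly expressed form, and it differed in the opposite direction. It measured 9.55, 9.98 and 9.71 FPKM in 2KR-MYB and 8.10, 7.15 and 6.80 FPKM in ANAA-MYB, with no overlap. Its log2 difference was 0.37 (SE 0.073; limma, adjusted p 0.0081). SLC25A37 therefore made up 82.7%, 81.9% and 82.8% of the FPKM of both mitoferrins in 2KR-MYB and 90.2%, 91.4% and 91.5% in ANAA-MYB. The SLC25A37 to SLC25A28 ratio was 4.71 ± 0.167 against 10.2 ± 0.876 (SD, n = 3 each; exact two-sided permutation p 0.1, the smallest that 3 against 3 allows). Because each gene lay apart, in opposite directions, the ratio had to lie apart too, so its p adds no support. SLC25A28 kept its call in 7 of 14 alternative settings.

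ALAS1 (chromosome 3, 52198083 to 52214327) measured 26.3, 28.0 and 28.7 FPKM in 2KR-MYB and 29.1, 31.2 and 30.3 FPKM in ANAA-MYB. The highest 2KR-MYB library lay just under the lowest ANAA-MYB library. The log2 difference was -0.12 (SE 0.054, 95% interval -0.25 to -0.00062; limma, adjusted p 0.13), which did not pass. ALAS2 (chromosome X, 55009055 to 55030977), the erythroid form, measured 11.3, 10.3 and 13.7 FPKM in 2KR-MYB and 9.18, 8.75 and 8.52 FPKM in ANAA-MYB. All 2KR-MYB libraries were above all ANAA-MYB libraries, but the 2KR-MYB libraries were spread (11.8 ± 1.72 against 8.82 ± 0.335 FPKM, SD, n = 3 each). The log2 difference of 0.37 (SE 0.095, 95% interval 0.15 to 0.59) had an adjusted p of 0.024 with limma and did not pass the threshold of 0.01.

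ALAS2 overlaps 2 tested genes, and the strand setting of the authors' counting is not given in the sources used here, so its reads could in part be theirs. PAGE2B measured 2.24 ± 0.365 FPKM in 2KR-MYB and 0.525 ± 0.316 FPKM in ANAA-MYB (log2 difference 1.10; limma, adjusted p 0.0026), and APEX2 17.2 ± 1.42 and 20.8 ± 1.04 FPKM (-0.26; adjusted p 0.029). The erythroid form supplied 30.1%, 26.9% and 32.3% of the summed ALAS FPKM in 2KR-MYB and 24.0%, 21.9% and 21.9% in ANAA-MYB. The sum itself was 39.4 ± 2.57 against 39.0 ± 0.874 FPKM (SD, n = 3 each), a difference smaller than the spread between replicates.

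**Figure D4:**
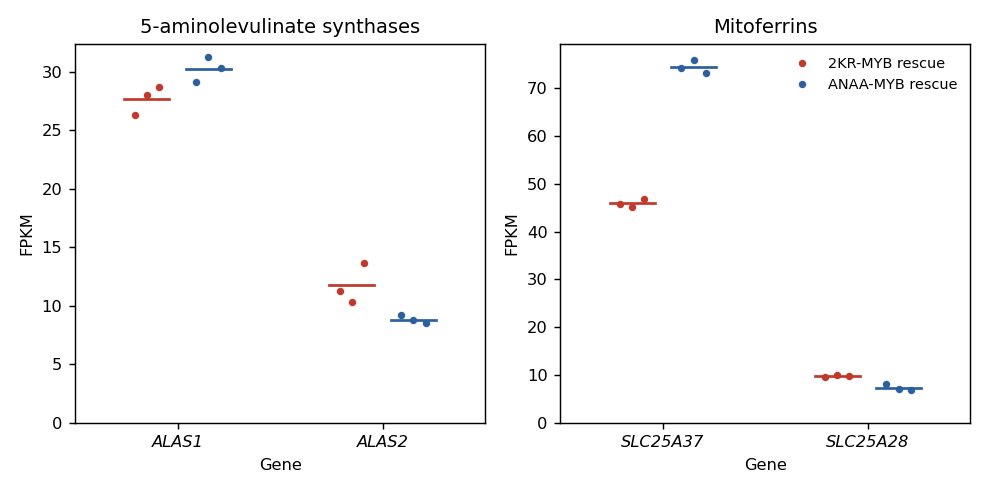
FPKM of ALAS1 and ALAS2 (left) and of SLC25A37 and SLC25A28 (right) in each library (points), with the group means as bars. In each pair the members lie on opposite sides: ALAS1 and SLC25A37 are lower and ALAS2 and SLC25A28 higher in 2KR-MYB, with no overlap; ALAS1 and ALAS2 did not pass the test.

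The cytosolic steps follow. ALAD (chromosome 9, 113386312 to 113401284), which condenses 2 aminolevulinate molecules into the first pyrrole, measured 12.3, 12.2 and 12.7 FPKM in 2KR-MYB and 9.91, 10.0 and 10.4 FPKM in ANAA-MYB. The groups did not overlap, and each was tight (SD 0.254 and 0.249 FPKM). It was 1.22-fold higher in 2KR-MYB, a log2 difference of 0.27 (SE 0.053, 95% interval 0.15 to 0.39; limma, adjusted p 0.0083). The call was close to the threshold: it was lost in 8 of 14 alternative settings, among them each one that left out a library, at adjusted p of at most 0.033, while the log2 difference stayed between 0.25 and 0.31.

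UROS (chromosome 10, 125784980 to 125823258), which closes the ring, measured 8.76, 8.95 and 8.37 FPKM in 2KR-MYB and 7.65, 9.22 and 8.14 FPKM in ANAA-MYB. Its ANAA-MYB libraries lay on both sides of the 2KR-MYB ones, and the log2 difference was 0.057 (95% interval -0.12 to 0.23; adjusted p 0.61). UROD (chromosome 1, 45012254 to 45015575) measured 289, 322 and 325 FPKM in 2KR-MYB and 329, 325 and 363 FPKM in ANAA-MYB, with a log2 difference of -0.12 (95% interval -0.27 to 0.031; adjusted p 0.21). The groups of UROD overlapped near 325 FPKM, with the lowest 2KR-MYB and the highest ANAA-MYB library away from the rest.

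Of the mitochondrial steps, CPOX (chromosome 3, 98570488 to 98593611), coproporphyrinogen oxidase, measured 13.4, 13.7 and 14.3 FPKM in 2KR-MYB and 12.1, 12.9 and 13.5 FPKM in ANAA-MYB. The groups overlapped, with a log2 difference of 0.098 (95% interval -0.039 to 0.23; adjusted p 0.26). PPOX (chromosome 1, 161165728 to 161178013), protoporphyrinogen oxidase, measured 7.89, 8.87 and 8.54 FPKM in 2KR-MYB and 11.2, 9.73 and 8.08 FPKM in ANAA-MYB. The ANAA-MYB libraries were the most variable of any member, at a coefficient of variation of 16.2%, and the log2 difference was -0.17 (95% interval -0.42 to 0.077; adjusted p 0.28). PPOX overlaps B4GALT3, at a log2 difference of -0.12 (adjusted p 0.11).

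FECH (chromosome 18, 57544377 to 57586702), ferrochelatase, measured 24.2, 26.5 and 24.4 FPKM in 2KR-MYB and 19.5, 21.3 and 22.2 FPKM in ANAA-MYB. Every 2KR-MYB library was above every ANAA-MYB library, yet the log2 difference of 0.24 (SE 0.064, 95% interval 0.095 to 0.39) did not pass, with a limma adjusted p of 0.026; it passed under upper quartile scaling alone of the 14 alternatives, at 0.0077. Summed over the 8 enzymes the libraries held 420 ± 23.5 FPKM in 2KR-MYB and 440 ± 20.8 FPKM in ANAA-MYB (SD, n = 3 each), a difference within the spread between replicates. UROD dominates that sum. The 7 enzymes without it summed to 104.0, 108.6 and 110.7 FPKM in 2KR-MYB and 98.7, 103.2 and 101.2 FPKM in ANAA-MYB, in the other direction and with no overlap (108 ± 3.43 against 101 ± 2.21 FPKM; exact two-sided permutation p 0.1, the smallest possible). This sum was not among the planned tests. Of the 7, ALAD, ALAS2 and FECH themselves lay apart as higher in 2KR-MYB and ALAS1 as lower. The p of the sum is therefore not independent of these genes.

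The genes around the pathway were read from 4 lists, each gene tested in the same fit. Of 19 heme partner genes (transporters, heme breakdown and heme-binding proteins) 16 were tested and 2 passed, near the 13% of all tested genes, with a median log2 difference of -0.061 (-0.015 for all tested genes). BLVRA, a biliverdin reductase, was higher in 2KR-MYB at 31.1 ± 2.00 against 23.8 ± 2.04 FPKM (log2 difference 0.37, adjusted p 0.0081). TSPO, an outer mitochondrial membrane protein that binds porphyrins, was lower at 10.5 ± 0.978 against 22.5 ± 2.94 FPKM (log2 difference -1.02, adjusted p 4.0e-04). The carriers and helpers of the mitochondrial steps did not pass: SLC25A38, the glycine carrier, was at 0.036, ABCB10 at -0.040, the ALAS regulator CLPX at -0.023 and TMEM14C, a porphyrinogen transporter, at 0.062. Heme oxygenase 1, HMOX1, was listed at no more than 0.0263 FPKM in any library and was not tested.

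Of 29 iron supply and iron-sulfur genes 28 were tested and 3 passed, against 13% of all tested genes, with a median of -0.00041. Besides SLC25A28, these were TFRC, the transferrin receptor that brings iron into the cell, and IBA57, an iron-sulfur assembly factor. TFRC measured 221, 209 and 222 FPKM in 2KR-MYB and 250, 265 and 283 FPKM in ANAA-MYB (log2 difference -0.29, adjusted p 0.0078). IBA57 was at 2.96 ± 0.0840 against 4.46 ± 0.304 FPKM (log2 difference -0.46, adjusted p 0.0039). Of 11 genes that supply glycine or succinyl-CoA 10 were tested, and IDH2, mitochondrial isocitrate dehydrogenase, was the 1 that passed, at a log2 difference of -0.27 (adjusted p 0.0074), also against 13% of all genes. The median was 0.048.

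The 15 erythroid regulators were all tested, and 6 passed, 5 lower and 1 higher in 2KR-MYB, where 7.42% and 5.57% of all tested genes did. Their median was -0.078, and the list was chosen with earlier results of these data known. GATA1 measured 79.0, 74.9 and 80.6 FPKM in 2KR-MYB and 111, 107 and 105 FPKM in ANAA-MYB (log2 difference -0.45, adjusted p 5.0e-04). KLF1 measured 20.2, 19.8 and 17.6 FPKM against 30.1, 30.6 and 31.5 FPKM (-0.65, adjusted p 3.3e-04). Neither overlapped between the rescues. NFE2 was at -0.40 (adjusted p 0.0014), LDB1 at -0.27 (0.0080) and STAT5A at -0.34 (0.0094). BACH1, a repressor that heme inactivates, was higher in 2KR-MYB at 0.32 (0.0031), and EIF2AK1, the heme-regulated kinase, was at 0.035 and did not pass. Of the 14 genes called in the pathway and the 4 lists, SLC25A37, TSPO, GATA1, KLF1 and NFE2 kept their call under every alternative, and the other 9 lost it in at least 1.

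**Figure D5:**
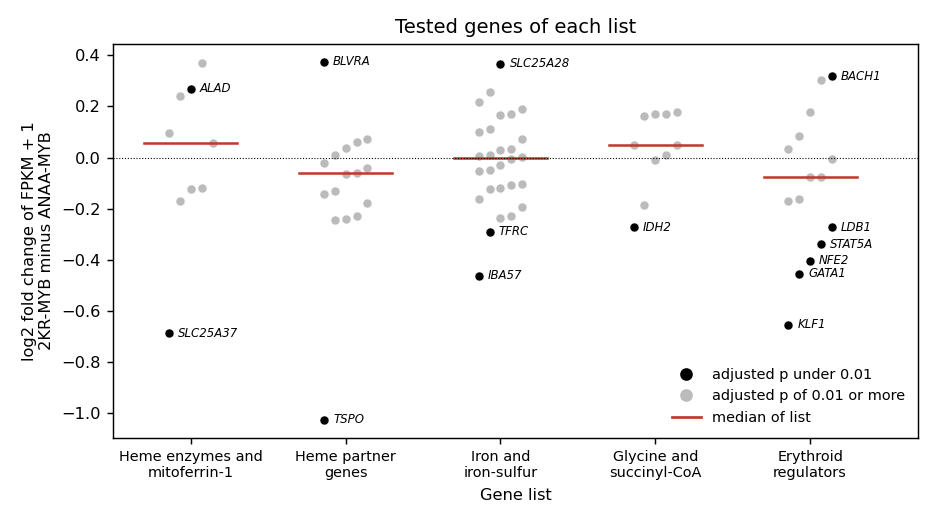
Log2 difference, 2KR-MYB minus ANAA-MYB, of each tested gene of the heme pathway and of the 4 lists around it (points). The list medians lie between -0.078 and 0.057, and TSPO at -1.02 is the lowest value.

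MYB itself, read from both the tagged and the endogenous gene, measured 69.0, 61.2 and 67.5 FPKM in 2KR-MYB and 53.6, 55.3 and 62.0 FPKM in ANAA-MYB (log2 difference 0.21, adjusted p 0.062), so the groups overlapped and this checks neither the mutant nor the knockdown. The FPKM of a library summed to 579920 to 633662, and the depth is unknown. Libraries of one rescue correlated at 0.983 to 0.989 across genes and those of different rescues at 0.968 to 0.973; genes are not independent replicates. Summed erythroid markers were 1560 to 1704 FPKM in 2KR-MYB and 1746 to 2144 FPKM in ANAA-MYB. Summed megakaryocyte markers were 4.92 to 6.11 and 7.50 to 8.88 FPKM (2 of 5 with a mean of at least 1 FPKM; PF4 and GP9 listed at 0), T cell markers 26.4 to 30.9 and 43.1 to 63.0 FPKM (1 of 3, CD3D), monocyte markers 9.51 to 12.4 and 19.4 to 24.4 FPKM (1 of 3, LYZ), B cell markers 1.69 to 2.13 and 2.17 to 2.19 FPKM (1 of 3; MS4A1 listed at 0) and stromal markers 2.35 to 4.18 and 2.36 to 3.47 FPKM (2 of 3). Within the stromal sum COL1A1 was higher in 2KR-MYB (2.13 ± 0.764 against 0.553 ± 0.126 FPKM, adjusted p 0.0061) and COL1A2 lower (1.06 ± 0.0969 against 2.42 ± 0.492 FPKM, adjusted p 0.0048). Their part in the results was not tested. Every library is of a K562 clone, and the sums are not counts of cells of other types. In bulk RNA, fewer cells that express a gene and less RNA per cell cannot be told apart.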

How the data were processed

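Poly(A) RNA of the 6 libraries was sequenced as 150 bp pairs from a stranded kit. Per the submitters' processing notes the authors used bcl2fastq 2.18.0.12, Trimmomatic 0.36, TopHat2 2.1.1, Cufflinks and Cuffdiff 2.2.1 on GRCh38, and deposited FPKM per gene and replicate. Nothing read here states the annotation, the strand setting or how libraries were scaled. FPKM keep no read depth: low values showed no common step (at most 6.82% of ratios in one bin), so no reads were recovered and no count test was run. Another 12 columns of per-sample values were not used.

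Of 58288 IDs, 55854 matched a symbol. The test was limma 3.58.1 (R 4.3.3, trend) on log2(FPKM + 1), for genes averaging 1 FPKM or more, 2KR-MYB minus ANAA-MYB, with Benjamini-Hochberg adjustment over all 12634 and a threshold of 0.01; a fold on this scale understates the change of low genes. The code was checked on simulated data. Alternatives changed the pseudocount, filter, scaling, variance prior, replicate block, threshold or libraries. Named were every member, 11 pathway genes fixed by name, every listed gene past the threshold, and the 5 genes most alike to ALAS1, ALAS2 and SLC25A37. Overlapping and neighbouring genes were added for their position. The genes of the closing paragraph fall under none of these rules and were picked after their values were seen. The members and lists were chosen with earlier results of these data known; 2 genes of the partner list and 1 marker are not reported here and are left out of the counts of their lists.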

Additional observations from a re-analysis of the deposited data

How the results depend on the processing

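At an adjusted p of 0.05 in place of 0.01 the called genes were 4 of the pathway, 6 partners, 5 iron genes, 3 supply genes and 3402 of all. With no filter on low values, which tests 28536 genes, they were 1, 1, 0, 0 and 942 of all. The settings named below tested 12634 genes, as in the main test. Supply genes called were 2 under upper quartile scaling and 3 under quantile normalization; upper quartile scaling also turned the split of all calls to 54.5% higher in 2KR-MYB, from 42.9%. The replicate numbers do not pair the libraries (correlations of same-numbered deviations -0.052, -0.035 and -0.0026); with the replicate block the calls were 1 of the pathway, 0 iron genes, 0 supply genes and 1089 of all. Leaving out 1 library at a time, so with 2 left in a group and fewer residual degrees of freedom, gave 1 of the pathway each time, 1 to 2 partners, 0 to 2 iron genes, 0 supply genes, 3 to 4 regulators and 831 to 1139 of all; the pathway gene lost was ALAD. Of 90 counts under these settings 45 stayed within 1.5 times the main count. Genes that were never called changed sign: CLPX at 0.019 (upper quartile), 0.027 (quantile), 0.067 (without 2KR-MYB replicate 3) and 0.057 (without ANAA-MYB replicate 2) and ABCB10 at 0.00076 (upper quartile). Leaving out 1 library at a time, CLPX ranged from -0.082 to 0.067. The cause of these shifts was not tested. No member changed sign, but leaving out 1 library moved some that were not called by over 1.5 times: PPOX was at -0.067 without ANAA-MYB replicate 1 and -0.28 without ANAA-MYB replicate 3, UROS at 0.0043 without ANAA-MYB replicate 1, 0.038 without 2KR-MYB replicate 2 and 0.12 without ANAA-MYB replicate 2, UROD at -0.067 without 2KR-MYB replicate 1 and -0.071 without ANAA-MYB replicate 3, and CPOX at 0.061 without ANAA-MYB replicate 1.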

Other observations

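For ALAS1, ALAS2 and SLC25A37 the genes with the most similar values were read over the 6 libraries, which form 2 groups, so these are descriptions with no test. ALAS1 was closest to IRF3, an interferon regulatory factor (Pearson r 0.998, 29.6 FPKM in 2KR-MYB and 36.4 FPKM in ANAA-MYB), then to GPR107, TMEM147-AS1, ENSG00000257342 and NF2, with 3 genes over an r of 0.99. ALAS2 was closest to SNX18P12 (r 0.998), then to ENSG00000255455, LYRM1, XPC-AS1 and PDPR, with 5 genes over 0.99. SLC25A37 was closest to ENSG00000230258 (r 0.999), GFOD1, FHOD1, CD46 and ADCYAP1, with 119 genes over 0.99. CD46, a complement regulator, measured 72.6 FPKM in 2KR-MYB and 98.3 FPKM in ANAA-MYB.

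Further genes lay apart between the rescues without passing the threshold. Lying apart was common, at 44.9% of all tested genes, called or not. The genes given here are examples picked after their values were seen, and not all such genes of the lists are given. In the partner list the mitochondrial carrier SLC25A39 was at a log2 difference of -0.23 (limma, adjusted p 0.017) and the heme exporter FLVCR1 at -0.25 (0.017). Among the suppliers of succinyl-CoA, OGDH and DLST, both parts of the oxoglutarate dehydrogenase complex, were at 0.18 (0.034) and 0.16 (0.045). DLD, which belongs to the same complex, overlapped between the rescues and was at 0.011 (0.90).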
